A study of Mus musculus with 20 samples.

Results

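The intervals described here were chosen by measured values of all 4 groups: they were those whose methylation-dependent read count was at least 2-fold higher at P21 than at P0 in neurons of the mouse hypothalamus and stayed within 0.67 to 1.5 times the P0 count in non-neurons. Of 50782 intervals in the deposited table, 27259 had at least 10 reads in at least 5 libraries and were kept, and 910 of these, 3.34%, were members. Neuronal and non-neuronal nuclei of inbred male C57BL/6 mice were sorted by staining for NeuN, with 2 hypothalami of the same age pooled for each sort. There were 5 libraries each of P21 neurons, P0 neurons, P21 non-neurons and P0 non-neurons, 20 in all, labelled as biological replicates, and no transgene, treatment or mutation is named in the labels. The non-neuronal gate holds every cell type without NeuN staining, and glia and other cells in it cannot be told apart.

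DNA methylation in mammals sits mostly on the cytosine of CpG dinucleotides. De novo methyltransferases, DNMT3A and DNMT3B, add it to unmethylated sites, and DNMT1 copies it when DNA replicates. In mouse brain, methylation goes on changing in neurons over the weeks after birth, when most neurons no longer divide and DNMT3A is the main de novo enzyme, while many glial cells are still being born and maturing. NeuN, the product of Rbfox3, is a nuclear RNA-splicing regulator found in most mature neurons.

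The assay, methylation-specific amplification with sequencing (MSA-seq), digests genomic DNA first with SmaI, which is blocked by CpG methylation within its CCCGGG site, and then with XmaI, which cuts the sites left and leaves ends to which adaptors are joined. An interval between neighbouring CCCGGG sites is therefore amplified when methylation protects the left and the right site alike. Its count is a relative measure, affected as well by interval length, PCR and sequencing depth, and gives no percentage of methylated DNA. In sorted pools of nuclei, more neurons methylated at a site and a larger share of a neuron type that carries the methylation cannot be told apart.

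Each library held between 5663740 and 9998110 reads. Counts were divided by the library's median over the 15147 intervals with at least 20 reads in every library (144 to 342 reads) and multiplied by 100, so that a scaled count of 100 is that of the median well-covered interval. Replicates within a group correlated at 0.964 to 0.983 (Pearson's r of log counts across intervals, which are not independent replicates). On the third principal component, which held 5.06% of the variance, P0 neuron replicates 1 to 3 scored 30.2 to 44.3 and replicates 4 and 5 scored -18.9 to -15.7. P0 non-neuron replicates 1 to 3 scored -16.2 to 9.22 and replicates 4 and 5 scored -42.6 to -27.2. The labels give no batch, so member counts are also given without these libraries. Without P0 replicates 4 and 5 of both cell types the rule found 1098 members, 730 of them among the 910, and without P0 replicates 1, 2 and 3 it found 877, 593 of them among the 910.

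**Figure D1:**
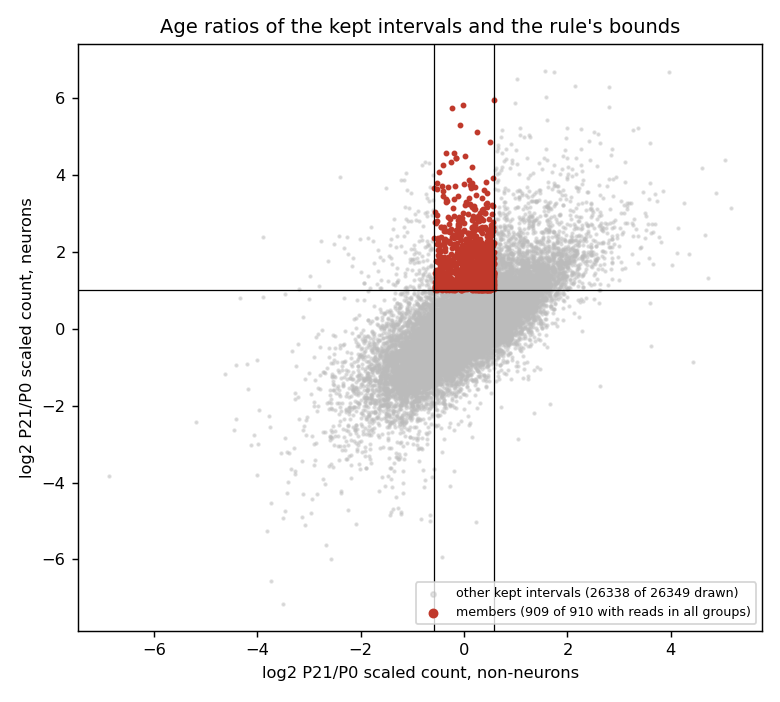
Each point is a kept interval with reads in all 4 groups, placed by its log2 ratio of mean scaled counts, P21 over P0, in non-neurons (x axis) and in neurons (y axis). Lines mark the rule's bounds of 2-fold in neurons and 0.67 to 1.5 in non-neurons, and the members (red) fill the upper central strip, most of them near its lower edge.

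The ratios of P21 to P0 chose the members, so they are given as a description without a test. The median member had a neuron ratio of 2.83 (quartiles 2.30 to 4.29), against 0.962 over all kept intervals, and a non-neuron ratio of 1.11 (quartiles 0.915 to 1.31), against 1.00. Most members lay near the bound: 482 of 910 were 2- to 3-fold higher, 265 were 3- to 5-fold, 122 were 5- to 10-fold and 41 were at least 10-fold higher in P21 neurons. A neuron ratio below 2.2 was found for 163 members, and 244 intervals with the same non-neuron band had a ratio of 1.8 to 2. At the bound, chr9:43158946-43159244 was a member with 192 ± 20.3 scaled counts in P21 neurons and 96.1 ± 8.76 in P0 neurons, and chr17:27256991-27258353 fell just short with 125 ± 15.3 in P21 neurons and 62.6 ± 4.02 in P0 neurons (SD, n = 5 each). A 2-fold ratio in neurons was itself found for 3426 kept intervals (12.6%). Non-neurons were above the band in 2353 of these, below it in 163 and within it in the 910 members, which made up 26.6%.

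Members held few reads outside P21 neurons, which the way they were chosen favours. The filter asked for at least 10 reads in 5 libraries, the size of 1 group. An interval could thus pass through P21 neurons alone, and the rule asked for lower counts in P0 neurons. The levels are therefore given as a description. The median scaled count of members was 29.2 in P21 neurons (quartiles 11.1 to 85.9), 8.71 in P0 neurons (3.33 to 27.4), 10.95 in P21 non-neurons (4.65 to 31.9) and 9.96 in P0 non-neurons (4.24 to 27.8). Over all kept intervals the medians were 31.4, 27.8, 32.5 and 29.3 in the same order of groups. Members thus stood close to the level of the median kept interval in P21 neurons and below it in the other 3 groups. The members took 2.31 to 2.46% of all reads in P21 neuron libraries, 0.582 to 0.642% in P0 neurons, 0.847 to 0.961% in P21 non-neurons and 0.637 to 0.721% in P0 non-neurons. A scaled count of at least 100 was reached by 205 members (22.5%) in P21 neurons, 56 in P0 neurons, 77 in P21 non-neurons and 71 in P0 non-neurons, where 27.8 to 28.2% of kept intervals reached it in each group. The median member had 83.7 reads per library in P21 neurons and 15 in P0 neurons, so a ratio of 2 rests on few P0 reads in many members: 360 averaged under 10 reads in P0 neurons.

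Among members with a mean of at least 2 reads per library in P0 neurons, the largest ratio belonged to chr9:96337839-96338589 (mm9, 750 bp). Another 8 members under that floor, with some P0 neuron reads, had ratios of 16.9 to 56.1. Its scaled counts were 203, 172, 239, 242 and 205 in P21 neurons, 4.17, 4.62, 1.88, 2.50 and 3.93 in P0 neurons, 8.42, 4.17, 5.02, 5.08 and 13.5 in P21 non-neurons, and 5.14, 4.19, 3.06, 2.94 and 9.03 in P0 non-neurons. All 5 P21 neuron libraries were above all others, and the other 3 groups overlapped at a few scaled counts. The mean of 212 ± 29.2 in P21 neurons was 62.1 times the 3.42 ± 1.17 in P0 neurons (SD, n = 5 each), while the non-neuron ratio was 1.49, close to the upper bound of the band, and the interval was a member in 15 of the 20 versions that each left out 1 library.

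The next largest above the same floor, chr5:135729398-135730353 (955 bp), differed in that non-neurons already carried a measurable count. P21 neuron libraries had 341, 326, 299, 339 and 309 scaled counts, P0 neurons 3.57, 7.18, 7.50, 12.5 and 10.1, P21 non-neurons 33.7, 20.8, 37.4, 33.0 and 38.4, and P0 non-neurons 40.6, 31.7, 51.5, 24.7 and 22.9. Neurons were therefore the lowest group at P0 and the highest at P21, with no overlap with non-neurons at either age. The neuron ratio was 39.5 (323 ± 18.8 at P21, 8.17 ± 3.36 at P0) and the non-neuron ratio 0.953.

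The other 6 of the 8 largest ratios above that floor ran from 15.3 to 23.9, with P21 neuron means of 35.6 to 65.9 and P0 neuron means of 1.49 to 3.90 scaled counts. Of these, chr7:70899882-70900388 (506 bp) was the steadiest in P21 neurons, at 58.2 ± 1.88, with 3.03 ± 1.07 in P0 neurons, 1.86 ± 2.79 in P21 non-neurons and 2.46 ± 1.72 in P0 non-neurons. Its place within the band rests on P21 non-neuron replicate 5: without it the P21 non-neuron mean was 0.636, the non-neuron ratio 0.258 instead of 0.755 and the interval no member. The interval to its right, chr7:70900388-70903030, stood at 15.2 ± 2.06 in P21 neurons and 0.981 ± 1.23 in P0 neurons. It was no member, because its non-neuron counts were 0.253 ± 0.566 at P21 and 1.33 ± 1.59 at P0, a ratio below the band made of very few reads. A further member, chr18:81177217-81178058, had 16, 25, 27, 35 and 29 reads in P21 neurons and no read in any P0 neuron library, with 4, 3, 10, 0 and 7 reads in P21 non-neurons and 3, 0, 2, 4 and 4 in P0 non-neurons. Against a floor of 3 reads over the P0 neuron group it was at least 26.4-fold higher in P21 neurons, and another 6 members had only 1 to 3 reads over the whole P0 neuron group.

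At the other end of the count range stood members that were amplified well in every group. The highest in P21 neurons was chr18:78651185-78651820 (635 bp), at 1175 ± 140 in P21 neurons, 219 ± 39.0 in P0 neurons, 441 ± 47.6 in P21 non-neurons and 376 ± 71.1 in P0 non-neurons. In chr17:15331706-15332309 (603 bp) the scaled counts were 968, 651, 937, 868 and 972 in P21 neurons, 73.8, 87.2, 116, 106 and 108 in P0 neurons, 112, 100, 128, 116 and 141 in P21 non-neurons, and 106, 70.1, 109, 82.9 and 72.9 in P0 non-neurons. Only the P21 neuron libraries stood apart, at a mean ratio of 8.96 to P0 neurons, and the other 15 libraries stayed between 70.1 and 141. Among these, P21 non-neurons were higher on average than P0 non-neurons, with overlap. The interval that shares its right cut site, chr17:15332309-15333210, was also a member, at 384 ± 34.3 in P21 neurons, 96.2 ± 12.1 in P0 neurons, 75.3 ± 13.5 in P21 non-neurons and 105 ± 20.1 in P0 non-neurons. The remaining 6 of the 8 highest had P21 neuron means of 711 to 911 and neuron ratios of 2.11 to 4.29, and chr2:92435874-92436783 had 699 ± 45.9 in P21 non-neurons, a neuron to non-neuron ratio of 1.30.

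The members with the steadiest non-neuron counts show the contrast with the smallest spread between non-neuron libraries. In chr3:88169837-88170846 (1009 bp) the 5 P21 neuron libraries had 118, 123, 112, 128 and 138 scaled counts, the P0 neuron libraries 28.6, 41.0, 29.4, 26.2 and 38.8, the P21 non-neuron libraries 34.2, 41.1, 37.9, 38.6 and 31.6, and the P0 non-neuron libraries 39.4, 39.5, 35.7, 35.9 and 37.5. The 10 non-neuron libraries varied by 7.62% (coefficient of variation), and the P0 neuron libraries overlapped them. The intervals on both sides differed from it: the left one, chr3:88169021-88169837, had 285 ± 33.9 in P21 neurons and 216 ± 26.6 in P0 neurons, and the right one, chr3:88170846-88172770, had 16.8 ± 3.26 and 10.3 ± 4.31 in P21 and P0 neurons. The median coefficient of variation over the 10 non-neuron libraries was 31.8% for members and 30.7% for all kept intervals.

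**Figure D2:**
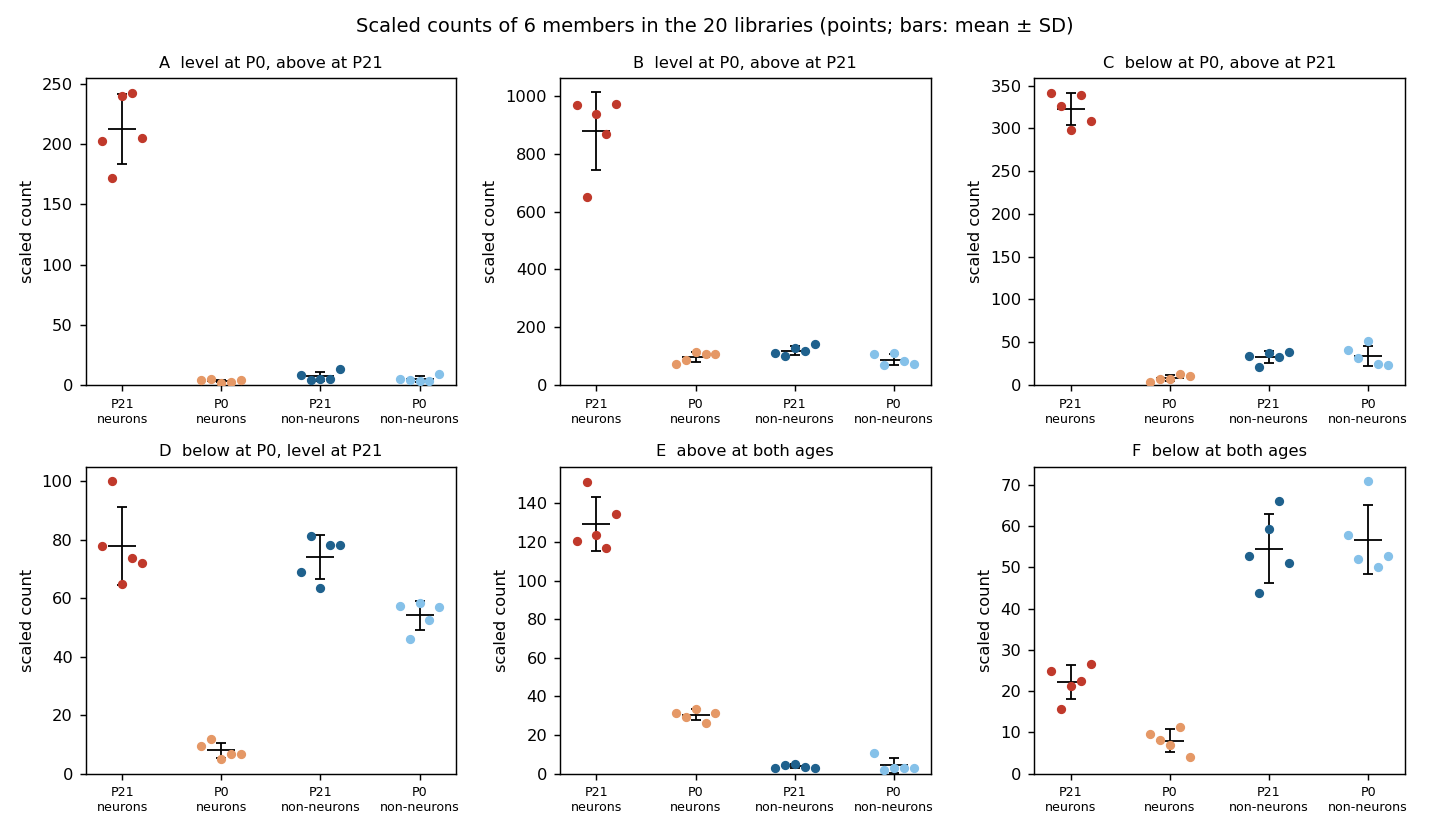
Scaled counts of 6 members in each of the 20 libraries (points) with the group mean and SD (n = 5), 1 panel per member on its own linear axis from 0. The panels show chr9:96337839-96338589 (A), chr17:15331706-15332309 (B), chr5:135729398-135730353 (C), chr8:36514890-36515943 (D), chr8:93393598-93394580 (E) and chr19:7497210-7497648 (F), and the P21 neuron libraries lie above all P0 neuron libraries in each.

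Between libraries, the neuron groups were well separated. All 5 P21 neuron libraries lay above all 5 P0 neuron libraries in 782 of the 910 members (85.9%), where the background over kept intervals was 18.7%, and this was so for 454 of the 455 members in the upper part of the P21 neuron level and 328 of the 455 in the lower part. The rule used this contrast, so nothing is read from the difference. The 2 non-neuron groups overlapped in 861 members (94.6%, background 65.2%), and P21 non-neurons lay wholly above P0 non-neurons in 35 (3.85%, background 16.1%) and wholly below in 14 (1.54%, background 18.7%). In 566 members (62.2%) the 5 P21 neuron libraries were above all 15 other libraries, as they were in 6.13% of all kept intervals. The rule bounded the non-neuron ratio as well, so nothing is read from these differences to the background either.

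Calls were also counted from a model fitted across all intervals. In edgeR's quasi-likelihood test with Benjamini-Hochberg adjustment over 26679 intervals, which included 855 of the members, 850 (99.4%) were called higher in P21 neurons than in P0 neurons at an adjusted p of 0.05, against a background of 31%. In non-neurons 121 members (14.2%, background 28.5%) were called higher and 29 (3.39%, background 25.8%) lower at P21, and 705 were not called in either direction. The test of the difference between the age changes of the cell types, the interaction, was positive and called in 634 members (74.2%, background 10.9%). These contrasts hold the libraries and ratios that chose the members and are given as counts only. They leave 221 tested members in which a 2-fold rule was met and the difference between cell types did not pass the test.

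The rule set no level for neurons relative to non-neurons at either age, but it fixed a higher ratio of neurons to non-neurons at P21 than at P0. It also chose high P21 neuron counts over low P0 neuron counts. Members were sorted by their level as a description, and nothing is read from the distance of these classes and courses to the background. Neurons were called level with non-neurons where the ratio of group means was between 0.67 and 1.5, below at or under 0.67 and above at or over 1.5. At P0, neurons were level in 527 members (57.9%, background 85.9%), below in 292 (32.1%, background 9.2%) and above in 91 (10%, background 4.95%). At P21 they were above in 704 (77.4%, background 13.7%), level in 192 (21.1%, background 67.3%) and below in 14 (1.54%, background 19%). The median ratio of neurons to non-neurons was 2.41 at P21, against 0.849 over all kept intervals, and 0.836 at P0, against 0.944.

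**Figure D3:**
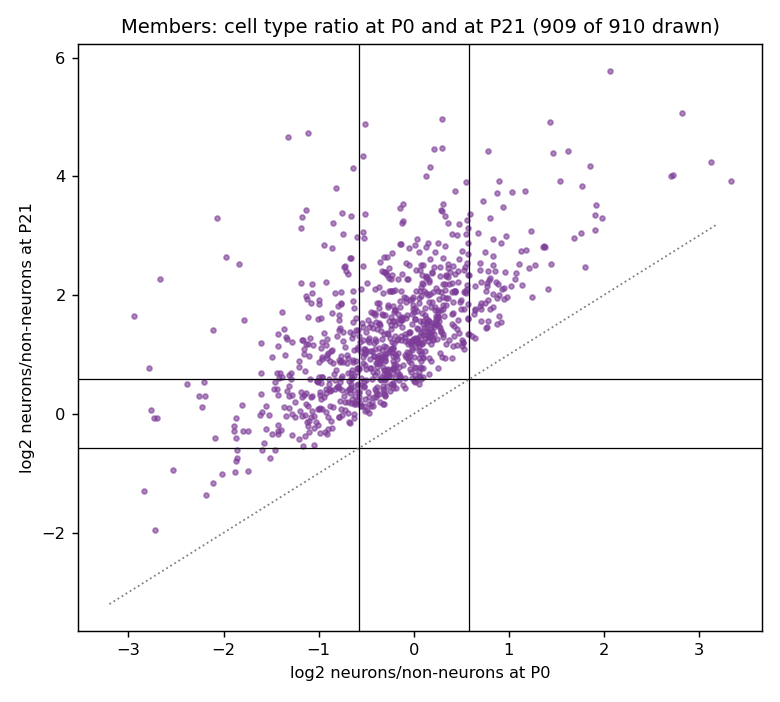
Each point is a member, placed by its log2 ratio of neurons to non-neurons at P0 (x axis) and at P21 (y axis), and 909 of the 910 are drawn because 1 has no read in P0 neurons. Solid lines mark ratios of 0.67 and 1.5, the dotted line marks equal ratios at both ages, and every point lies above it, as the rule requires, with the densest cloud in the upper middle (level at P0, above at P21).

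The most common course was level at P0 and above at P21, in 473 members (52.0%, background 8.98%). Their median scaled counts were 40.3 in P21 neurons, 13.3 in P0 neurons, 14.1 in P21 non-neurons and 12.7 in P0 non-neurons, so 3 groups shared a level that P21 neurons left by about their median neuron ratio of 2.89. The members chr9:96337839-96338589 and chr17:15331706-15332309 above took this course. In the latter, edgeR's test called non-neurons higher at P21 too (log2 change 0.470, adjusted p 0.00369).

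In 140 members (15.4%, background 1.2%) neurons were below non-neurons at P0 and above them at P21. The median scaled count was 22.8 in P21 neurons, 3.73 in P0 neurons, 8.61 in P21 non-neurons and 7.94 in P0 non-neurons. The median neuron ratio of 4.91 was the highest of the 6 courses. The bounds of this course, with the non-neuron ratio held in the band, favour large neuron ratios, so nothing is read from this order. Besides chr5:135729398-135730353, chr9:48502714-48503768 (1054 bp) took this course, with 39.2 ± 3.24 in P21 neurons, 1.94 ± 0.977 in P0 neurons, 12.5 ± 2.06 in P21 non-neurons and 14.95 ± 4.21 in P0 non-neurons. Its ratio of neurons to non-neurons was 3.14 at P21 and 0.130 at P0.

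In a further 138 members (15.2%, background 4.02%) neurons were below non-neurons at P0 and level with them at P21. An example is chr8:36514890-36515943 (1053 bp), with 77.6, 100, 64.9, 73.7 and 72.0 in P21 neurons, 9.52, 11.8, 5.00, 6.88 and 6.74 in P0 neurons, 68.9, 81.2, 63.5, 78.2 and 78.1 in P21 non-neurons, and 57.1, 46.1, 58.2, 52.4 and 56.9 in P0 non-neurons. The P0 neuron libraries were far below the others, P21 neurons overlapped P21 non-neurons, and P0 non-neurons lay just under both, without overlap. In this interval edgeR's test called non-neurons higher at P21 too (log2 change 0.486, adjusted p 0.00417). Over these members the medians were 8.07 in P21 neurons, 3.25 in P0 neurons, 7.75 in P21 non-neurons and 7.05 in P0 non-neurons, so most of them rest on low counts.

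Neurons were above non-neurons at both ages in 91 members (10%, background 3.55%), with median scaled counts of 46.5 in P21 neurons, 14.1 in P0 neurons, 7.13 in P21 non-neurons and 6.26 in P0 non-neurons. The number of members in this course was higher without P0 replicates 1, 2 and 3. In chr8:93393598-93394580 (982 bp) the libraries had 120, 151, 124, 117 and 134 in P21 neurons, 31.5, 29.2, 33.8, 26.2 and 31.5 in P0 neurons, 3.16, 4.69, 5.02, 3.55 and 2.95 in P21 non-neurons, and 10.9, 1.796, 3.06, 2.94 and 2.78 in P0 non-neurons. Neurons were 33.3-fold above non-neurons at P21 and 7.10-fold above them at P0, with no overlap at either age. Without P0 non-neuron replicate 1 the P0 ratio was 11.5 and the non-neuron age ratio 1.47, against 0.904. The interval that shares its left cut site, chr8:93393071-93393598 (527 bp), had 126 ± 17.1 in P21 neurons, 127 ± 9.23 in P0 neurons, 11.7 ± 3.57 in P21 non-neurons and 10.7 ± 5.33 in P0 non-neurons. It was thus already neuron-high at P0 and level between the ages, next to a member that had a similar scaled count only at P21. The largest ratio of neurons to non-neurons at P21 was 54.9, in chr4:133572192-133572877 (685 bp), with 61.0 ± 13.3 in P21 neurons, 5.92 ± 2.85 in P0 neurons, 1.11 ± 0.909 in P21 non-neurons and 1.41 ± 0.643 in P0 non-neurons.

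The 2 remaining courses were rarer. Neurons were level at both ages in 54 members (5.93%, background 62.1%), where the medians of both cell types were higher at P21 but only neurons passed the bound. The median was 22.5 in P21 neurons, 9.93 in P0 neurons, 18.0 in P21 non-neurons and 13.1 in P0 non-neurons. Neurons were below non-neurons at both ages in 14 (1.54%, background 3.98%). In chr19:7497210-7497648 (438 bp), P21 neurons had 24.8, 15.8, 21.2, 22.4 and 26.5, P0 neurons 9.52, 8.21, 6.88, 11.2 and 3.93, P21 non-neurons 52.6, 43.8, 59.4, 66.0 and 51.1, and P0 non-neurons 57.7, 52.1, 70.9, 50 and 52.8. Neurons stayed under every non-neuron library at both ages, at 0.140 of the non-neuron mean at P0 and 0.406 of it at P21.

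By edgeR's test, 707 tested members (82.7%, background 20.8%) were called higher in neurons than in non-neurons at P21 and 7 (0.819%, background 15%) lower. At P0, 89 (10.4%, background 6.92%) were called higher in neurons and 103 (12.05%, background 2.86%) lower. All 89 that were called higher at P0 were called higher at P21, as were 85.9% of all tested intervals called higher at P0. Of the 103 called lower at P0, 63 were called higher at P21, 7 lower and 33 neither, where of all tested intervals called lower at P0 17.7% were called higher, 49.7% lower and 32.6% neither. The remaining 555 of the 707 were called in neither direction at P0 (background 14.4%). The rule fixes a higher ratio of neurons to non-neurons at P21 than at P0, so nothing is read from these joint counts. With fewer P0 libraries fewer calls were made at P0 over all intervals too, with 909 members tested. Without P0 replicates 4 and 5, 56 members were called higher in neurons at P0 (background 4.49%), and without P0 replicates 1, 2 and 3, 45 were called higher (background 2.51%) and 48 lower (background 0.941%).

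The larger the neuron ratio, the lower was the P0 level, while the P21 level differed less between classes. From the 2- to 3-fold members to those at least 10-fold higher, the median in P0 neurons was 11.02, 8.87, 5.71 and 2.05 scaled counts, and in P21 neurons it was 25.4, 32.0, 37.7 and 33.3. The non-neuron medians were lower in the same order, at 13.5, 11.1, 7.75 and 2.50 in P21 non-neurons and 11.99, 9.77, 7.48 and 2.73 in P0 non-neurons over the same classes. The share of members in which neurons were below non-neurons at P0 was 26.8%, 33.6%, 38.5% and 65.9%, and the share above at P21 was 66.0%, 86.4%, 95.1% and 100%. With the non-neuron ratio held in the band, a larger neuron ratio requires a larger shift of neurons against non-neurons between the ages. These shares are therefore largely fixed by the classes, and nothing is read from them. A small denominator raises a ratio by itself, and the part of counting error in this order was not tested.

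Interval length, chromosome and neighbours were not used by the rule. The median length of members was 1155.5 bp, against 1194 bp over all kept intervals. Members made up 1.47% of kept intervals of 60 to 200 bp, 2.77% at 200 to 400 bp, 3.82% at 400 to 800 bp, 4.65% at 800 to 1200 bp, 3.94% at 1200 to 1600 bp and 2.26% at 2500 to 3000 bp. Intervals of 400 to 1600 bp thus held 54.6% of members and 44.3% of kept intervals. The mean scaled count over all libraries is not free of the rule, which used these counts. By this level, the share was 5.28%, 3.82%, 3.08% and 1.17% over 4 classes of equal size, from the lowest to the highest. By chromosome it was highest on chromosomes 12 (50 of 1072 kept, 4.66%), 11 (96 of 2151, 4.46%) and 19 (4.44%) and lowest on X (11 of 606, 1.82%) and 18 (12 of 694, 1.73%), and none of the 13 kept on Y was a member. These shares are counts with no test.

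**Figure D4:**
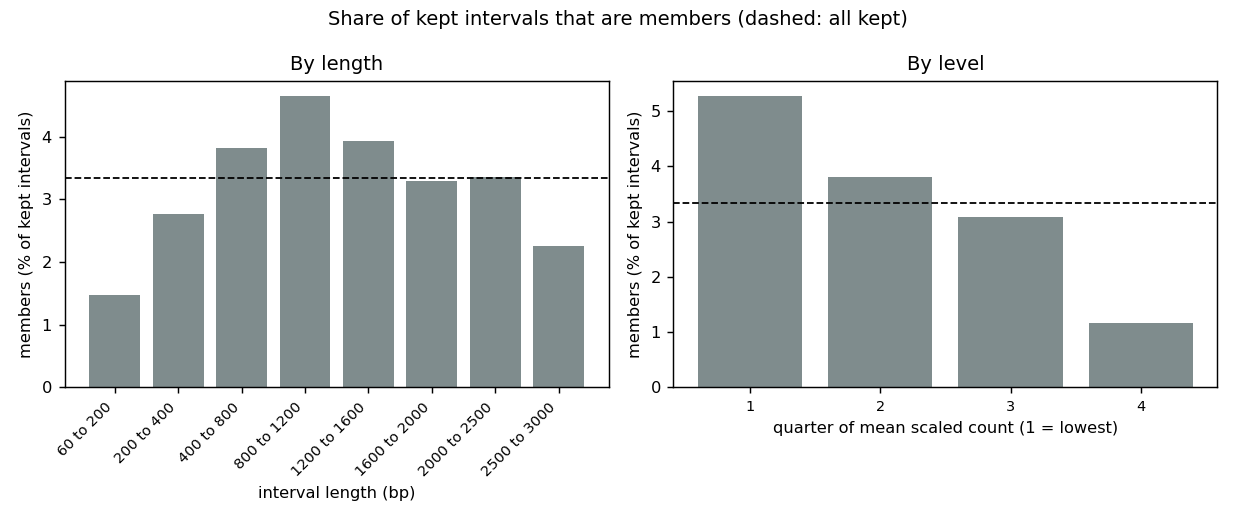
Members as a percentage of the kept intervals in each class of interval length (left) and in each of 4 equal classes of the mean scaled count over all 20 libraries (right), both axes starting at 0. The dashed line is the share over all kept intervals, 3.34%, and the bars stand clear of it at 400 to 1600 bp and in the lower classes of level.

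Some members lay side by side. Neighbouring intervals share a cut site, so they are not independent measurements. A cut site was shared with a kept interval by 426 members (46.8%, against 45.5% of all kept intervals), and with another member by 146 (16.04%), while 345 of the kept intervals that were no members (1.31%) touched a member. Another member lay within 10 kb of 178 members (19.6%), against 3.30% of the other kept intervals with a member that close, and within 100 kb of 284 (31.2%), against 16.7%. These counts include the 146 members and the 345 other intervals that share a cut site with a member, so most of the 178 were touching members. The 910 formed 764 single intervals, 65 runs of 2, 4 runs of 3 and 1 run of 4. In the 76 touching pairs the neuron ratios differed by a median of 1.35-fold, and 49 pairs differed by less than 1.5-fold.

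The 345 touching intervals that missed the rule also leaned towards higher counts in P21 neurons. Their median ratio of P21 to P0 was 1.54 in neurons (quartiles 0.950 to 2.64) and 0.984 in non-neurons, against 0.883 and 0.937 for the 11638 kept intervals that touched kept intervals but no member. A neuron ratio of at least 2 was found in 105 of the 345 (30.4%), 79 of them with non-neurons above the band, against 6.80% of the 11638, and a ratio of at most 0.5 in 12 (3.48%), against 10.3%. At P21, neurons were at least 1.5 times non-neurons in 144 of the 345 (41.7%), against 11.9%.

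The run of 4 spanned chr15:78755618-78757722. Its first interval, chr15:78755618-78756449 (831 bp), had 285 ± 19.1 in P21 neurons, 140 ± 22.3 in P0 neurons, 55.0 ± 10.02 in P21 non-neurons and 66.4 ± 8.46 in P0 non-neurons. The next, chr15:78756449-78757091 (642 bp), had the largest neuron ratio of the run, 3.99, with 181, 154, 204, 187 and 210 in P21 neurons, 33.3, 57.9, 50.6, 41.9 and 50.6 in P0 neurons, 24.2, 25, 29.7, 28.4 and 24.1 in P21 non-neurons, and 24.0, 11.4, 14.3, 23.5 and 17.4 in P0 non-neurons. The non-neuron ratio of this interval was 1.45, near the upper bound. The last pair had neuron ratios of 2.43 and 2.13 and non-neuron ratios of 0.700 and 0.678, near the lower bound. P21 non-neuron libraries lay wholly above P0 non-neurons in chr15:78756449-78757091 and wholly below them in the last pair. Touching members of the run thus changed in opposite directions in non-neurons. The pattern in neurons ended at both edges. To the left, chr15:78753625-78755618 had 33.7 ± 6.31 in P21 neurons and 29.1 ± 7.64 in P0 neurons, and to the right, chr15:78757722-78760217 had 13.8 ± 3.82 and 15.6 ± 5.34 in P21 and P0 neurons.

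**Figure D5:**
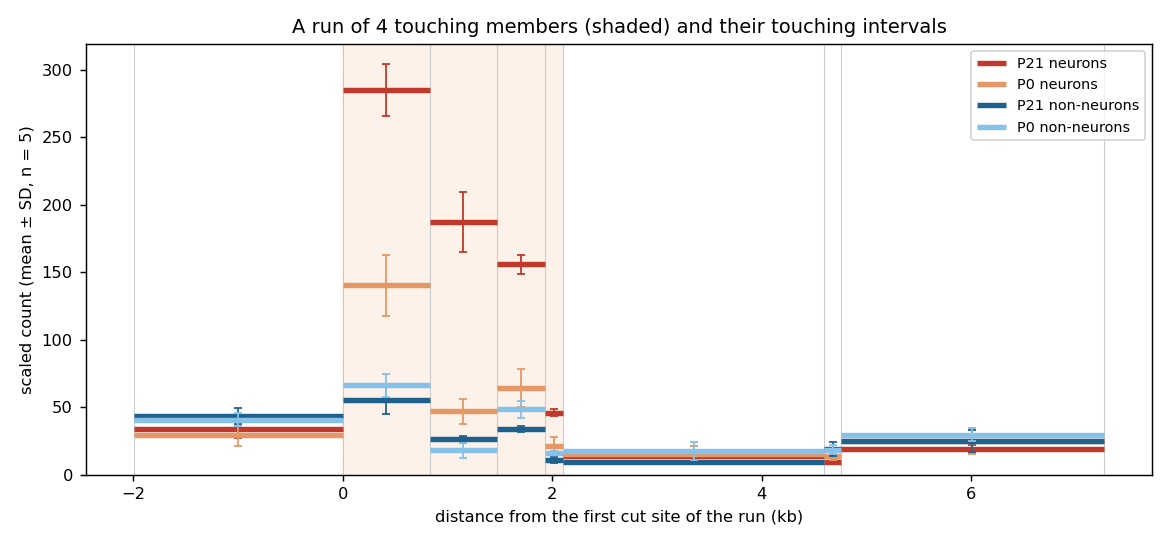
Mean scaled count with its SD (n = 5) in each group, drawn as a bar over each interval's width, against the distance in kb from the first cut site of the run at chr15:78755618-78757722 on mm9. The 4 shaded members show P21 neurons above the other 3 groups, at 285, 187, 156 and 46.0. In the intervals outside, P21 neurons were not the highest group and group means were at most 43.6.

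In the next run, chr2:168106252-168109751, the middle interval, chr2:168107331-168107612 (281 bp), had 124, 130, 127, 130 and 124 in P21 neurons, 32.1, 21.5, 27.5, 27.5 and 22.5 in P0 neurons, 33.7, 32.3, 25.6, 27.4 and 31.6 in P21 non-neurons, and 11.4, 19.8, 27.6, 16.5 and 34.7 in P0 non-neurons. P21 neurons stood far above a level shared by the other groups, and the flanking members had neuron ratios of 8.66 and 3.83. The interval that touches the run on the left, chr2:168105921-168106252, had 21.7 ± 4.37 in P21 neurons, 2.63 ± 0.633 in P0 neurons, 2.28 ± 0.940 in P21 non-neurons and 3.77 ± 1.69 in P0 non-neurons. It was 8.23-fold higher in P21 neurons and no member, because its non-neuron ratio of 0.604 lay just under the band. The run at chr12:107122883-107124727 was the most even, with neuron ratios of 3.36, 3.13 and 2.84 and non-neuron ratios of 1.06, 1.00 and 1.20.

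Chaining members less than 100 kb apart gave 124 groups, 97 of 2 members, 20 of 3, 5 of 4 and 2 of 5. The group of 5 at chr10:79344018-79452766 held 25 kept intervals, and its members had neuron ratios of 2.12 to 9.38, while the other 20 had a median of 0.85, with 1 of them 2-fold. Its strongest, chr10:79381687-79382311 (624 bp), had 56.1 ± 9.59 in P21 neurons, 5.99 ± 2.74 in P0 neurons, 10.05 ± 3.65 in P21 non-neurons and 9.90 ± 2.46 in P0 non-neurons. The other, at chr11:97302946-97430110, held 20 kept intervals, of which the 15 that were no members had a median neuron ratio of 0.845, and mixed courses. In it, chr11:97302946-97304149 had 216 ± 5.36 in P21 neurons, 67.8 ± 5.59 in P0 neurons, 30.9 ± 6.48 in P21 non-neurons and 25.9 ± 6.38 in P0 non-neurons, while chr11:97361843-97361967 had 2.72 ± 0.862 in P21 neurons, 1.06 ± 0.793 in P0 neurons, 10.5 ± 1.64 in P21 non-neurons and 7.04 ± 2.26 in P0 non-neurons. Neurons were therefore above non-neurons at both ages at the left end of this group and below them at both ages nearer its middle.

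A group of 3, singled out after its values were seen, spanned chr11:74978836-74980722, where all 3 kept intervals were members with neuron ratios of 9.52 to 14.7. The largest, chr11:74978836-74979938 (1102 bp), had 157 ± 15.2 in P21 neurons, 10.7 ± 2.45 in P0 neurons, 19.1 ± 5.50 in P21 non-neurons and 17.9 ± 4.46 in P0 non-neurons. Its companions, at 55.4 ± 8.94 and 13.8 ± 2.14 in P21 neurons and 5.82 ± 2.57 and 1.44 ± 1.09 in P0 neurons, had non-neuron ratios of 1.34 and 1.08. Neurons were 7.19- to 10.7-fold above non-neurons at P21 over the 3 intervals, so every kept interval of this short stretch was high in P21 neurons alone.

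How often single members stayed members with a library left out differed with their count. The filter still asked for at least 10 reads in 5 libraries. A member that reached them only in P21 neurons was lost without any 1 of these libraries, whatever its ratio. The 23.9-fold chr4:155026900-155028110 was lost in this way and was a member in 15 of the 20 versions. The part of the filter in the counts that follow was not tested. Leaving out each library in turn gave 815 to 977 members, and 460 of the 910 were members in all 20 of these versions: 311 of the 455 in the upper part of the P21 neuron level and 149 of the 455 in the lower part. Under all 5 other scalings 500 remained members. A ratio of at least 2 in every same-numbered pair of neuron libraries was met by 438.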

How the data were processed

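MSA-seq libraries of sorted hypothalamic nuclei were analysed from the deposited table of raw read counts per SmaI/XmaI interval, whose unit was taken from its values. Per the submitters' processing notes, the tools were Bowtie 0.12.9, cutadapt and FastQC 0.10.1, with coordinates on mm9. The rule for assigning reads to intervals, multi-mapping reads included, is not stated in the sources read here. Column names gave age, replicate and cell type (N, neurons; G, glia, taken as non-neurons), and the number of columns from other samples was 0. Intervals ran from 60 to 3000 bp, and coordinates are those of the deposited table.

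The members, lists and tests were chosen with earlier results of these data known. Counts were scaled by each library's median, averaged per group and passed through the rule. Among members the rule for named intervals took the 8 largest neuron ratios (P0 neuron mean of at least 2 reads), the 8 highest in P21 neurons, the 5 lowest neuron to non-neuron ratios at P0, the 5 highest at P21, the 3 longest runs, the intervals nearest the bounds and the 3 with the steadiest non-neuron counts, from which the text draws together with their touching intervals. The groups of members within 100 kb were added after the data were seen. Differential counts came from edgeR 4.0.16 in R 4.3.3 (filterByExpr, TMM, glmQLFit with robust estimation, glmQLFTest, 1 mean per group, Benjamini-Hochberg adjustment), tested on simulated data first. DESeq2 1.42.0, limma-voom 3.58.1, other scalings, filters, thresholds and left-out libraries were alternatives. Reads carry no molecular identifiers, so reads are not independent molecules. A genome, gene annotation and gene lists on mm9 were not used here, so intervals have no gene names or sequences, and cell type markers were not analysed here.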

Additional observations from a re-analysis of the deposited data

Results flagged for a closer look

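Of 175 groups of 5 libraries looked at over the named intervals, 6 held a library far from the other 4, where chance flags about 1 in 20 groups. Among members, chr7:70899882-70900388 had 6.75 scaled counts in P21 non-neuron replicate 5 against at most 1.56 in the others, and chr8:93393598-93394580 had 10.9 in P0 non-neuron replicate 1 against 1.796 to 3.06. The P21 neuron replicate 2 of chr12:110676177-110677092 stood at 143 against 104 to 115, and P21 non-neuron replicate 4 of chr12:107123192-107123313 stood at 9.64 against 3.65 to 4.74. In chr15:78755618-78756449, P0 non-neuron replicate 3 was low at 51.5 against 67.6 to 72.0. In chr17:27256991-27258353, which missed the 2-fold bound, P0 non-neuron replicate 5 had 96.5 against 61.7 to 69.4.

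The age change differed between neurons and non-neurons in 634 tested members (74.2%, background 10.9%) by edgeR's interaction test, a difference that the rule largely fixes.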

How the results depend on the processing

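Of 456 alternative values of the counts reported, 441 stayed within 1.5 times the reported count. The number of members was 1400 with no filter on low counts, 428 at 3-fold, 514 with a narrower non-neuron band and 438 when every same-numbered neuron pair had to be 2-fold; other scalings gave 897 to 1146. With total-count scaling, which moved the median of all log2 age changes to 0.26 in neurons and 0.26 in non-neurons, against 0.06 and 0.03 under TMM, 244 members were called higher (background 40.6%) and 2 lower (16.9%) at P21 in non-neurons. Under upper-quartile scaling, which moved the median log2 ratio of all intervals at P21 to -0.25, 15 were called lower in neurons at P21 (background 33.3%), against 7 (15%). Neurons were below non-neurons at both ages in 9 members under TMM and in 6 with the length trend removed.

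The splits of the P0 libraries were chosen after seeing the data. Without P0 replicates 4 and 5, 79 members of 909 tested were called higher at P21 in non-neurons (background 23.7%) and 56 higher in neurons at P0 (4.49%). Without P0 replicates 1, 2 and 3, 11 of 909 were called lower at P21 in non-neurons (background 20.2%), 45 higher (2.51%) and 48 lower (0.941%) in neurons at P0, and neurons were above at both ages in 167.

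Leaving out single libraries gave 815 to 977 members, 847 to 881 called higher at P21 in neurons, 95 to 132 higher and 20 to 29 lower in non-neurons, 76 to 94 higher and 95 to 108 lower in neurons at P0, 681 to 724 higher and 6 to 9 lower at P21, and 601 to 635 with the interaction. Courses ranged over 453 to 480 (level, then above), 128 to 151 (below, then above), 127 to 147 (below, then level), 91 to 113 (above at both), 47 to 66 (level at both) and 11 to 17 (below at both). Of 1160 alternative values of named intervals, 34 moved by more than the spread between replicates and 0 reversed; 24 of the 41 named members stayed members in all 20 versions. Without P0 neuron replicate 4 the log2 neuron ratio of chr5:138720732-138720916 was 4.74, against 3.38.

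The labels do not say whether same-numbered libraries share a pool, and deviations of same-numbered libraries correlated at -0.0831 to 0.322 over all pairs of groups and at 0.0451 to 0.21 between P0 neurons and P0 non-neurons. Not every pair passed 0.1, so the numbers were not treated as pairs, and 5 of 20 correlated best with their own number. With the replicate block, 850 of 855 members tested were called higher at P21 in neurons (8498 of all 26679 intervals tested). In non-neurons 133 (7862 of all) were higher and 30 (7152) lower. In neurons against non-neurons, 96 (2160 of all) were higher and 111 (889) lower at P0, and 712 (5787) higher and 7 (4470) lower at P21. The interaction was positive and called in 644 (3161 of all). The cause of each shift was not tested. Depth limits the members with few P0 neuron reads, of which 360 averaged under 10.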
